A study of Homo sapiens with 6 samples.

Results

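The clustered protocadherin genes are 53 protein-coding genes on human chromosome 5, of 19970 protein-coding genes of chromosomes 1 to 22 and X, and were taken as all RefSeq genes of GRCh38.p14 on that chromosome whose symbols start with PCDHA, PCDHB or PCDHG. They form the alpha cluster with 15 genes (chr5:140786140-141012347), the beta cluster with 16 genes (chr5:141051374-141249365) and the gamma cluster with 22 genes (chr5:141330514-141512975), all on the plus strand. Chromatin accessibility was measured by ATAC-seq, in which the Tn5 transposase inserts sequencing adapters where chromatin is open, in RKO, a colon cancer cell line. The 6 samples are 3 treated with DMSO, the solvent, and 3 treated with aphidicolin (APH), an inhibitor of the replicative DNA polymerases, at 0.2 µM for 16 h, and the study describes 3 independent experiments. Peaks with their midpoint from 50 kb before the first to 50 kb after the last of these genes (chr5:140736140-141562975, 827 kb) were kept, between 30 and 36 of the 64511 to 84510 peaks of a sample, and overlapping peaks of the samples were merged into 39 of the 102784 regions of the genome. A peak carries 1 value, the mean number of extended alignments per 32-nt bin under it, with no scale factor for the size of the library in it. Whether alignments were reduced to an equal number before counting is not known.

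Protocadherins are adhesion proteins of the cadherin family at the cell surface. In neurons each cell uses a small and partly random choice of the clustered genes, each from its own promoter, which gives neighbouring cells different surface identities. In the alpha and gamma clusters a variable first exon is spliced to constant exons at the end of the cluster, whereas beta genes are transcribed as single exons. Promoter choice is known to involve DNA methylation, the insulator protein CTCF and cohesin, which bring a promoter to distant enhancers, and most of these promoters carry a conserved sequence element with the letters CGCT at its core.

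Many promoters of a cluster shared a short word close to the start. In the RefSeq promoter sequences of GRCh38.p14 (250 bases before to 50 after the start), 47 of the 53 members had an entry, 13 of alpha, 14 of beta and 20 of gamma. PCDHA3, PCDHA13, PCDHB6, PCDHB11, PCDHGA12 and PCDHGC5 are named only. CGCT, read on both strands, was found in 12 of 13 alpha, 14 of 14 beta and 20 of 20 gamma promoters and in 24567 of all 35097 promoters of the table. The 8-letter word with CGCT that most alpha promoters held was ATGTCGCT, in 9 of 13 and in 0.234% of all promoters. For beta it was GTGGCGCT, in 13 of 14 and in 1.15% of all promoters, and for gamma GCCGCTGT, in 11 of 20 and in 1.64% of all promoters. None of these words, which all hold CGCT within them, was found in a promoter of another cluster. Each was picked as the most frequent in its own cluster, so its frequency there is a description. The following 48-base stretches, all on the plus strand with the word in capitals, show for each cluster the word in promoters with a peak (the first pair) and in promoters without one (the second pair).
PCDHA8, chr5:140841122-140841169: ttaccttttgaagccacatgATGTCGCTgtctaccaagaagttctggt
PCDHA4, chr5:140806971-140807018: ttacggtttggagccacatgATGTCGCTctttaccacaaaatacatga
PCDHA5, chr5:140821534-140821581: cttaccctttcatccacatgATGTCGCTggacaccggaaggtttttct
PCDHA6, chr5:140827889-140827936: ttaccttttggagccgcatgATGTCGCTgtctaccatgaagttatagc
PCDHB8, chr5:141177769-141177816: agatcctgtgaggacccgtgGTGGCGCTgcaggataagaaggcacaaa
PCDHB13, chr5:141213857-141213904: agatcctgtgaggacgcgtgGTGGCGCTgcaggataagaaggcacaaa
PCDHB4, chr5:141121715-141121762: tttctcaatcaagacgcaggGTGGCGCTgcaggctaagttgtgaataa
PCDHB5, chr5:141135171-141135218: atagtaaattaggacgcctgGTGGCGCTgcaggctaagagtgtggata
PCDHGB1, chr5:141350019-141350066: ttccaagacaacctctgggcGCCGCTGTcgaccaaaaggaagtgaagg
PCDHGA10, chr5:141412925-141412972: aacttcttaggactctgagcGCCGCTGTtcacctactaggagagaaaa
PCDHGA7, chr5:141382643-141382690: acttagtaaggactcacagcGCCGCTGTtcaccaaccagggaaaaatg
PCDHGB4, chr5:141387611-141387658: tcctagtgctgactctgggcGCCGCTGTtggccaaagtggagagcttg

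The words started at a median of -52 bp (from -85 to -42) relative to the annotated start in alpha, -65 bp (from -83 to -1) in beta and -67 bp (from -97 to -42) in gamma. ATGTCGCT was present in 5 of the 6 alpha promoters of the table with a peak in any sample and in 4 of the 7 without one. GTGGCGCT was present in 7 of 7 beta promoters with a peak and in 6 of 7 without, and GCCGCTGT in 3 of 6 gamma promoters with a peak and in 8 of 14 without. A short CTCF core, AGNNGGCNC on either strand, was found in 25.5% of all promoters and in 1 of 13 alpha, 5 of 14 beta and 1 of 20 gamma promoters, which says only which letters these windows hold. The whole promoter of the member with the highest mean value over the 6 samples in each cluster is given next, all on the plus strand, with every CGCT and its reverse complement AGCG in capitals. In gamma the lead of PCDHGB1 is narrow, at a mean of 67.7 against 66.6 for PCDHGC5, which was higher in all 3 APH samples. There were 4 such matches in PCDHAC2, 1 in PCDHB8 and 4 in PCDHGB1.
PCDHAC2, chr5:140966226-140966525: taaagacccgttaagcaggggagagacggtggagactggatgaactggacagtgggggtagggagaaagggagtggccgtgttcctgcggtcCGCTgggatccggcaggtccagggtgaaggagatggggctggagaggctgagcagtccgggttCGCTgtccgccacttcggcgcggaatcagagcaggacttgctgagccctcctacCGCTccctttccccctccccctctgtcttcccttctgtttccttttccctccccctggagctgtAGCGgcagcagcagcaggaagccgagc
PCDHB8, chr5:141177540-141177839: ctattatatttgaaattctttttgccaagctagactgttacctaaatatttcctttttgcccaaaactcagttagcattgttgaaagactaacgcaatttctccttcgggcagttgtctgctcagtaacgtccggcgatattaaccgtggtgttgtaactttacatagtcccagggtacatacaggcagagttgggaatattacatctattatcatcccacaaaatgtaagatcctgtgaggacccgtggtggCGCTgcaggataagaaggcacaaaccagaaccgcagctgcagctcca
PCDHGB1, chr5:141349849-141350148: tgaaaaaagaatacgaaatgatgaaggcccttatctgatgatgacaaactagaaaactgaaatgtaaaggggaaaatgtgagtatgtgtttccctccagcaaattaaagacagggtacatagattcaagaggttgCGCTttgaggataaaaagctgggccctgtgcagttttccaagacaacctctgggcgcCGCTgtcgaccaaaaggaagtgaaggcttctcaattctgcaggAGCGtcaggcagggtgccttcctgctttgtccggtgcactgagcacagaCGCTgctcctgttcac

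Fewer than 1 in 2 of the members had an accessible promoter in any sample, and the accessible ones were weak. A promoter was scored as having a peak where the midpoint of a peak lay within 1 kb of the gene start. A peak was found at the promoter of 23 of the 53 members in at least 1 sample, at 13 in all 6 samples, and at 30 in none. By cluster, a peak in any sample was found for 8 of 15 alpha, 8 of 16 beta and 7 of 22 gamma genes, and in all 6 samples for 3 alpha, 5 beta and 5 gamma genes. The samples had 17, 22 and 21 such members with DMSO and 18, 20 and 18 with APH, a mean of 20 ± 2.65 against 18.7 ± 1.15 (SD, n = 3, two-sided exact permutation test, p = 0.6). These are between 32.1% and 41.5% of the members, against 57.3% to 58.1% of the 19626 protein-coding genes of known strand in the same samples. Where a peak was present, the median promoter value of the members lay between 37.8 and 54.1 in a sample, against 119 to 157 for all protein-coding genes. Without library sizes no counting interval can be given for a value, and a promoter without a peak is one that did not pass the authors' peak threshold, whose lowest values per sample lay between 15.1 and 15.5.

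The 30 starts without a peak included long runs of neighbours. In the gamma cluster 9 neighbouring genes, from PCDHGA5 to PCDHGB6, had no promoter peak in any sample, while in beta the longest such run was 4 genes (PCDHB4 to PCDHB7) and in alpha 3 (PCDHA5 to PCDHA7). Neighbouring starts lay at a median distance of 7.06 kb in alpha, 9.09 kb in beta and 4.97 kb in gamma. Only uniquely mapped read pairs were kept by the authors, and these genes are close copies of each other, so reads can be lost where promoters share long runs of letters. The longest run that a member promoter shared exactly with another was a median of 19 bases for the 19 promoters of the table with a peak and 17 bases for the 28 without. By the study's methods each read was longer than this, so these medians cannot show whether reads were lost. The longest run of the table, 78 bases, was between PCDHGB4 and PCDHGB5, both without a peak, and the next, 55 bases, between PCDHB8 and PCDHB13, whose promoters had the highest values of the members. The part of mapping in the missing peaks was not tested.

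The map of the locus gives the level at each region. In the group means PCDHB9, PCDHB15 and PCDHGA11 lay among or below the alpha promoters other than PCDHAC2, and the other 12 beta and gamma promoters with a peak lay above these alpha promoters. The 2 regions with the highest means in both groups lay in the flank, within the neighbouring gene DIAPH1, and the next lay between alpha and beta.

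**Figure D1:**
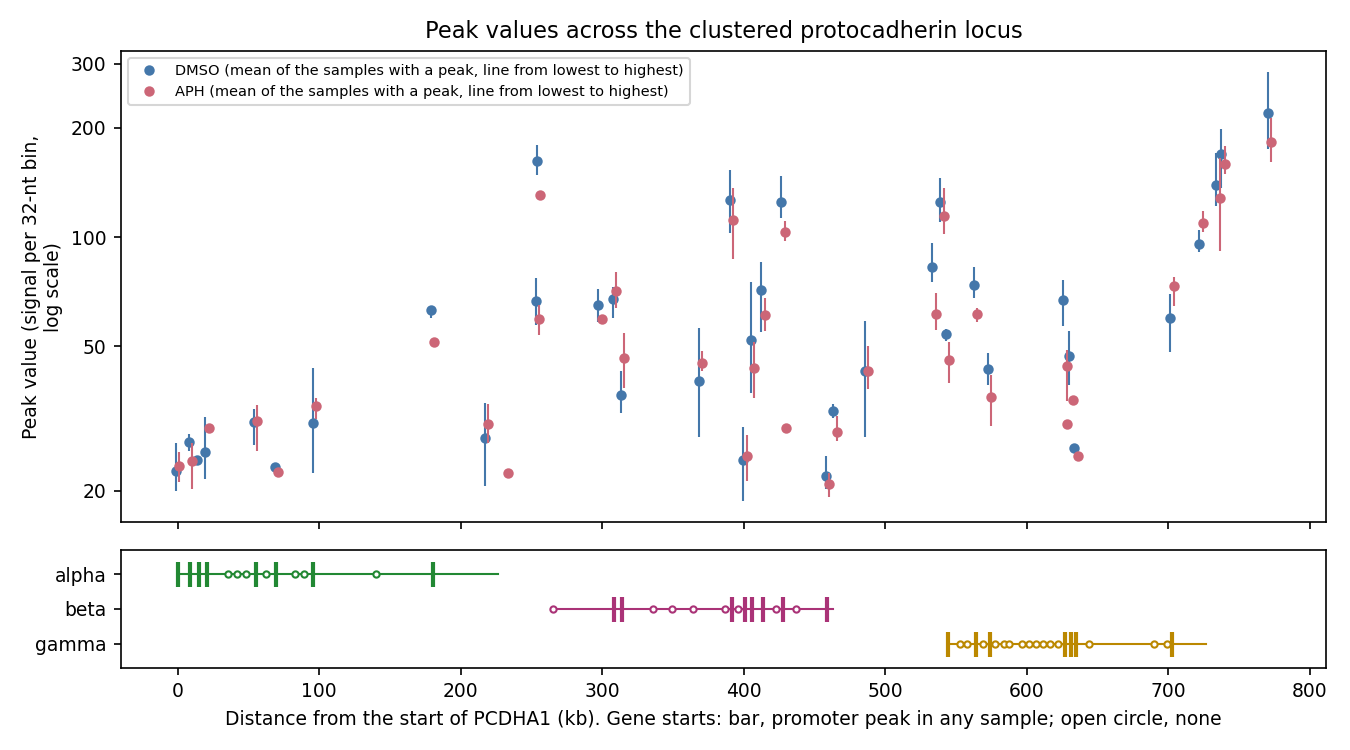
Values of the 39 merged regions (upper panel, log scale, mean number of alignments per 32-nt bin) against the distance of the region from the start of PCDHA1 in kb, with DMSO in blue and APH in red; points are means over the samples with a peak and lines run from the lowest to the highest sample. The lower panel marks the starts of the 53 genes by cluster, as a bar where a promoter peak was found in any sample (23 genes) and as an open circle where none was (30 genes), and alpha regions lie low except for the one at PCDHAC2.

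Of the 39 regions, 25 lay at a member promoter, which the rule places within 1 kb of the start, and 21 of these contained the start. The exceptions were the single regions of PCDHA2 and PCDHA13 and a second region each at PCDHB13 and PCDHGA10. The 25 had widths from 200 to 914 bp (median 369 bp). Their midpoints lay between -113.5 and 879.5 bp of the start, with a median of 0 bp. Since every alpha gene runs to the common end of its cluster, and likewise every gamma gene, a region late in those clusters lies within many members and can be given to none of them by position alone.

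In the alpha cluster the C-type gene PCDHAC2 had the strongest promoter. C-type genes are the members at the end of the alpha and gamma clusters that neurons use without the random choice. The PCDHAC2 promoter had values of 64.6, 59.9 and 64.1 with DMSO and 52.2, 51.1 and 50.5 with APH. The highest APH sample lay below the lowest DMSO sample, and the group means were 51.3 ± 0.864 and 62.9 ± 2.59 (SD, n = 3). The log2 change of the value with a pseudocount of 1, APH minus DMSO, was -0.29 ± 0.14 (SE), which did not pass the test (limma over 10811 promoters, adjusted p = 0.143). Under median centring of the samples it was -0.02 (limma adjusted p = 0.989). The other C-type gene of the cluster, PCDHAC1, had no promoter peak in any sample.

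PCDHA8, one of the genes chosen at random in neurons, had promoter values of 26.7, 32.3 and 33.6 with DMSO and 33.3, 34.4 and 25.8 with APH. The groups overlapped, and the log2 change was 0.01 ± 0.19 (SE, limma adjusted p = 0.967), or 0.28 after median centring (limma adjusted p = 0.773). PCDHA13, of the same kind, had 25.9, 43.7 and 22.4 with DMSO and 35.2, 36.1 and 31.6 with APH. There the DMSO samples enclosed the APH samples, with a log2 change of 0.21 ± 0.24 (SE, limma adjusted p = 0.474), or 0.49 after median centring (limma adjusted p = 0.679). The remaining 5 alpha genes with a peak had one in some samples only, PCDHA1, PCDHA2 and PCDHA4 in 5 samples, PCDHA10 in 2 and PCDHA3 in 1. Their values ran from 20 to 31.9.

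In the beta cluster PCDHB8 and PCDHB13 had the highest promoter values of all members. In each of the 6 samples the strongest member promoter was that of PCDHB8 or PCDHB13, PCDHB8 in 5 of them. PCDHB8 had promoter values of 102, 153 and 124 with DMSO and 136, 110 and 87.1 with APH. The groups overlapped and the log2 change was -0.19 ± 0.18 (SE, limma adjusted p = 0.415), a direction that turned positive, to 0.08, under both median centring and quantile normalization. It stood at the 37.2th percentile of all promoters with a peak in the DMSO samples and at the 41.7th in the APH samples, taken as means over the samples.

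PCDHB13 had promoter values of 113, 148 and 114 with DMSO and 111, 101 and 77.8 with APH. The APH samples all lay below the DMSO samples. The log2 change was -0.37 ± 0.16 (SE), at 0.0443 unadjusted and an adjusted p = 0.115 (limma over all promoters), and -0.10 after median centring (limma adjusted p = 0.935). The lowest of these values rests in part on a second, weak peak of 29.8 in APH replicate 3, 0.88 kb past the start. For the main region alone (chr5:141213615-141214127) the log2 change was -0.26 ± 0.16 (SE, limma adjusted p = 0.511).

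PCDHB2, the first beta gene along the cluster with a peak, had promoter values of 59.7, 69.5 and 72.9 with DMSO and 80.1, 63.8 and 69.6 with APH. These overlapped, with a log2 change of 0.08 ± 0.15 (SE, limma adjusted p = 0.691), or 0.35 after median centring (limma adjusted p = 0.612). PCDHB10 and PCDHB11 also had a peak in all 6 samples, with values from 36.1 to 75 and from 54.8 to 85.4 and log2 changes of -0.20 and -0.21, neither past the test. PCDHB3 and PCDHB15 had one in 5 samples and PCDHB9 in 4. The values of these 3 ran from 18.8 to 54.5.

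In the gamma cluster the promoters with a peak lay on both sides of the run of 9 genes without one. PCDHGA10, one of the genes chosen at random in neurons, had the largest log2 change of the uncentred value among the 13 member promoters tested. After median centring its change was -0.40 and that of PCDHGC5, at 0.57, was further from 0. Its values were 76.0, 56.9 and 68.5 with DMSO and 48.9, 41.5 and 35.4 with APH. Again no APH sample reached the lowest DMSO sample, and the group means were 41.9 ± 6.78 and 67.1 ± 9.62 (SD, n = 3). The log2 change was -0.67 ± 0.18 (SE, 95% interval -1.06 to -0.28), at 0.00294 unadjusted and an adjusted p = 0.0518 (limma over all promoters), just short of the threshold of 0.05. Without APH replicate 3 the log2 change was -0.56 and the limma adjusted p 0.0494, where 19.1% of all promoters passed, against 2.41% in the main fit. With a promoter of 2 kb to each side the log2 change stayed at -0.67 with a limma adjusted p of 0.0485, where 6.65% of all promoters passed. Across the other alternatives without the replicate number as a block, the adjusted p ran from 0.0518 to 0.660. The value of APH replicate 2 includes a second, weak peak of 30.6. For the main region alone (chr5:141412787-141413643) the log2 change was -0.60 ± 0.22 (SE), with an adjusted p of 0.305 over all shared regions (limma).

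PCDHGB1 had promoter values of 67.8, 71.3 and 82.7 with DMSO and 61.8, 58.5 and 63.9 with APH. The APH samples lay below the DMSO samples, with a log2 change of -0.26 ± 0.14 (SE, limma adjusted p = 0.181), which turned to 0.01 under median centring of the samples. PCDHGC5, a C-type gene, was the member with the largest log2 change in the other direction. Its promoter had values of 62.2, 69.5 and 48.3 with DMSO and 77.4, 77.8 and 64.5 with APH. The lowest APH sample lay below the highest DMSO sample, and the log2 change of 0.29 ± 0.17 (SE) did not pass the test (limma adjusted p = 0.196). The C-type genes PCDHGC3 and PCDHGC4 had no promoter peak in any sample. PCDHGA1 and PCDHGB2 had a peak in all 6 samples, with values from 39.6 to 55.9 and from 30.2 to 47.9 and log2 changes of -0.24 and -0.26. PCDHGB7 had one in 4 samples, with values from 34.7 to 55.1, and PCDHGA11 in 2, with values of 26.3 and 25.

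**Figure D2:**
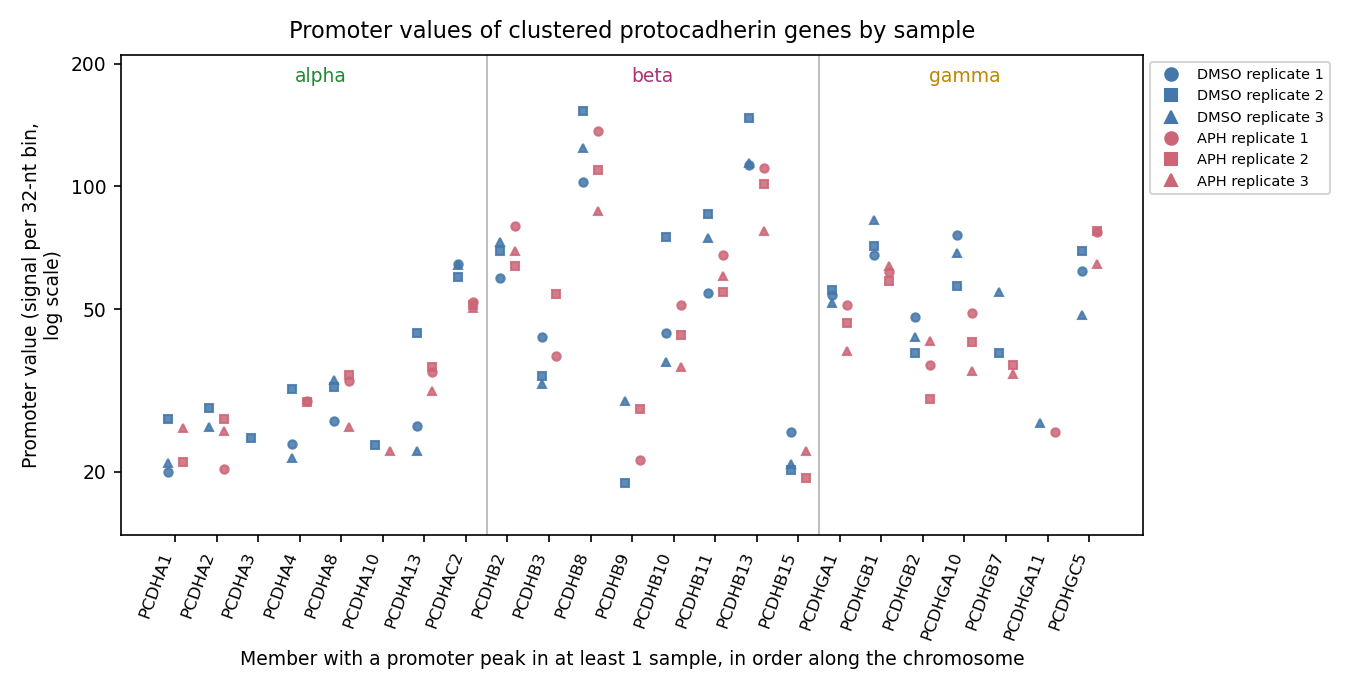
Promoter value (log scale, mean number of alignments per 32-nt bin) of the 23 members with a promoter peak in at least 1 sample, in order along the chromosome, with one mark per sample that had a peak. PCDHB8 and PCDHB13 stand above the rest. Among the members with a peak in every sample, the APH marks of PCDHAC2, PCDHB13, PCDHGA1, PCDHGB1 and PCDHGA10 lie below all their DMSO marks.

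The member promoters as a group had a median change with APH that depended on single libraries. Of the 13 promoters with a peak in all 6 samples, 9 had a lower and 4 a higher mean log2 value in APH, with a median log2 change of -0.21, but after median centring of the samples 3 were lower. Over all 10811 promoters with a peak in every sample the median was -0.27, with 10043 lower and 768 higher, and centring moved that median to 0.005. Without DMSO replicate 2 the median of the members was -0.07 and that of all promoters -0.25, and without APH replicate 3 they were -0.14 and -0.29. The order turned without APH replicate 1, at -0.285 for the members and -0.234 for all promoters. It also turned with quantile normalization, at -0.051 and -0.0085, where 7 of the 13 members were lower. Relative to the median of all promoters, 10 of the 13 members lay above it and 3 below, PCDHGC5 at 0.56 at one end and PCDHGA10 at -0.40 at the other. None of the 13 passed the limma threshold, against 2.41% of all promoters. The APH samples lay below all DMSO samples at 5 of them and above at 0, where this held for 42.2% and 0.694% of all promoters. At an unadjusted p below 0.05, 2 were lower and 0 higher, against 40.4% and 0.472% of all promoters. All 13 lay below the median value of the promoters tested. Members that had a peak in every sample passed a filter on low values that the other 40 did not, so these counts do not speak for the whole family.

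For the regions of the locus, 25 of the 39 had a peak in all 6 samples, 13 at member promoters and 12 elsewhere. None of the 25 passed the limma threshold, against 0% of the 50150 shared regions of the genome, and the smallest adjusted p was 0.305. The mean log2 value was lower in APH in 17 of the 25 and higher in 8, with a median log2 change of -0.15, against -0.06 over the genome. At an unadjusted p below 0.05, 3 were lower (10.1% of all shared regions) and 0 higher (2.46%). The APH samples lay below all DMSO samples in 7 regions (14.4% of all shared regions) and above in 0 (4.21%). By cluster, 1 of 4 alpha, 5 of 7 beta and 3 of 5 gamma regions were lower in the mean, with medians of 0.08, -0.19 and -0.26. Of the 25 regions, 16 had their highest value in DMSO replicate 2 and 11 their lowest in APH replicate 3. Without DMSO replicate 2 the median over the 25 regions was -0.04 and over the genome 0.04.

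**Figure D3:**
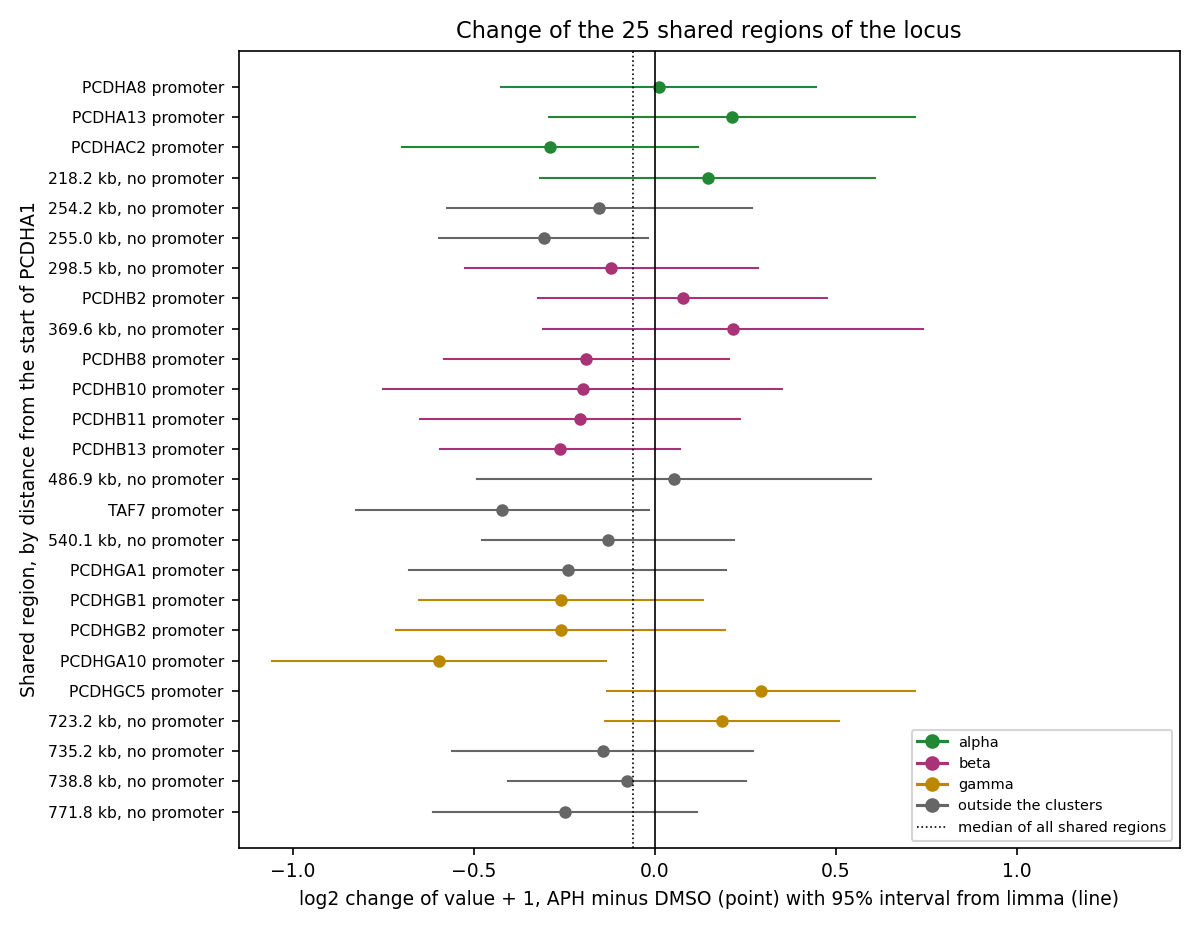
Log2 change of value + 1, APH minus DMSO, for each of the 25 shared regions (points) with its 95% interval from limma (lines), in order along the chromosome and coloured by cluster; the dotted line is the median of all 50150 shared regions (-0.06). The intervals of 22 regions include 0, and those of the PCDHGA10 and TAF7 promoters and of the region at 255 kb lie below it. The PCDHGA1 region has its midpoint just before the first gamma start and is drawn as outside the clusters.

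Presence of a region differed little between the groups. A peak in APH samples only was found in 3 of the 39 regions (18.5% of all merged regions), and in DMSO samples only in 1 (7.03%). Each of these 4 regions had a peak in 1 sample, and no region of the locus had a peak in all samples of one group and none of the other.

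Of the regions away from member promoters, 2 lay inside a cluster whose genes all span them. A weak region in alpha (chr5:141004075-141004565), within all 15 alpha genes and past the last start, had values of 20.6, 34.9 and 28.4 with DMSO and 34.7, 29.9 and 27.0 with APH, which overlapped. A region in gamma (chr5:141509041-141509655), within all 22 gamma genes, had 91.6, 105 and 91.0 with DMSO and 104, 106 and 118 with APH. This was the strongest shared region of the gamma cluster. Its log2 change was 0.19 ± 0.15 (SE, limma adjusted p = 0.656), and the lowest APH sample lay below the highest DMSO sample.

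Between alpha and beta, a region 255 kb past the start of PCDHA1 (chr5:141040736-141041445) had values of 159, 179 and 149 with DMSO and 129, 133 and 129 with APH. It was stronger in every sample than any promoter of the alpha cluster. The APH samples lay below the DMSO samples, by a log2 change of -0.31 ± 0.14 (SE, limma adjusted p = 0.369). Between beta and gamma, the promoter of TAF7, a subunit of the general transcription factor TFIID and not a protocadherin, had values of 74.96, 96.4 and 76.3 with DMSO and 55.4, 70.1 and 58.3 with APH. These also did not overlap, and the log2 change was -0.42 ± 0.19 (SE, limma adjusted p = 0.379). The strongest region of the locus (chr5:141557606-141558186), within DIAPH1, a formin that nucleates actin filaments, had 174, 284 and 200 with DMSO and 173, 213 and 161 with APH.

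The clusters were then compared with each other, each by the share of a sample's peaks that it held and by the level of those peaks. Alpha peaks were the weakest in every sample, and the exact tests of the difference in response to APH between clusters gave p = 0.3, 0.3 and 0.6. The mean value of the peaks as deposited was 30.2, 34.9 and 31.0 in alpha with DMSO and 34.3, 34.7 and 30.4 with APH. In beta it was 59.5, 72.5 and 60.6 with DMSO and 67.9, 58.3 and 56.0 with APH. In gamma it was 69.1, 63.4 and 59.2 with DMSO and 58.8, 55.4 and 59.7 with APH, without the peak at the PCDHGA1 promoter, whose midpoint lies just before the cluster. The alpha mean lay below the beta and the gamma mean in 6 of 6 samples, and the beta mean below the gamma mean in 2 of 6. The APH and DMSO samples overlapped in all 3 clusters (exact permutation test, p = 0.8 for alpha, 0.5 for beta and 0.2 for gamma).

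The level was next taken relative to the sample, as the log2 ratio of the mean of the cluster's peaks to the mean of all peaks, since the mean of all peaks was itself 82.2 ± 3.55 with DMSO and 71.2 ± 1.79 with APH (SD, n = 3). For alpha this was -1.37, -1.29 and -1.42 with DMSO and -1.02, -1.07 and -1.22 with APH. All 3 APH samples lay above all 3 DMSO samples, by 0.26 (two-sided exact permutation test, p = 0.1, the smallest this design allows). The same separation was seen in 13.7% of the 7358 windows of 200 kb with at least 3 peaks in each sample, and the opposite one in 4.42%. Over the shared regions the difference was 0.08, and with peaks at or above the pooled median of 49.7 alone, which leaves 1 alpha peak per sample, it turned to -0.12. The difference was 0.13 for beta, 0.07 for gamma and 0.07 for the whole locus (exact permutation test, p = 0.4, 0.6 and 0.5), with overlapping samples in each. With peaks at or above the pooled median gamma differed by 0.29 (exact permutation test, p = 0.1). Leaving out 1 replicate took beta down to 0.03 (without APH replicate 1), gamma to between 0.006 (without DMSO replicate 3) and 0.16 (without DMSO replicate 1), and the locus down to 0.01 (without DMSO replicate 3). The direction turned for gamma with the median over peaks (-0.11) and for beta over the shared regions (-0.01). For the locus it turned with the values as deposited (-0.14), the median over peaks (-0.03), the shared regions (-0.02) and equal peak numbers (-0.01). The effect of APH differed by -0.13 between beta and alpha, -0.19 between gamma and alpha and -0.06 between gamma and beta (exact permutation test of the within-sample difference, p = 0.3, 0.3 and 0.6). Each of these 3 differences turned positive, to 0.13, 0.41 and 0.29, with peaks at or above the pooled median, where the second reached the smallest p (exact permutation test, p = 0.1). The same p was reached by -0.19 for beta minus alpha without APH replicate 1 and by -0.23 for gamma minus beta with the median over peaks. Gamma minus alpha was -0.02 over the shared regions, -0.41 with the median over peaks and, with 1 replicate left out, between -0.27 (APH replicate 3 omitted) and -0.09 (DMSO replicate 1 omitted), and beta minus alpha was -0.07 without APH replicate 2.

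The number of peaks in the locus was 30, 36 and 33 with DMSO and 31, 36 and 33 with APH (exact permutation test, p = 1). Of all peaks of a sample these made up 0.0478% ± 0.00297 with DMSO and 0.0428% ± 0.00411 with APH (SD, n = 3, exact permutation test, p = 0.3). This change in share, -0.00494%, was -0.00155% with equal peak numbers and -0.00540% with peaks at or above the pooled median (exact permutation test, p = 0.7 and 0.1), and ran from -0.00706% (without APH replicate 3) to -0.00295% (without APH replicate 1) when 1 replicate was left out. Alpha held 0.00911%, 0.0104% and 0.0109% of the peaks with DMSO and 0.00752%, 0.00710% and 0.00856% with APH, lower in all 3 APH samples (exact permutation test, p = 0.1). Beta held 0.0137%, 0.0130% and 0.0155% with DMSO and 0.0113%, 0.0118% and 0.0128% with APH, likewise lower in all 3 (exact permutation test, p = 0.1). With equal peak numbers the shares overlapped, with differences of -0.00155% for alpha and -0.00103% for beta (exact permutation test, p = 0.3 and 0.7), and with peaks at or above the pooled median the differences were -0.000109% and -0.000483% (exact permutation test, p = 0.9 and 0.7). Such a separation was found in 8.75% of the 5840 windows of 200 kb that held on average 5 or more peaks, and the opposite one in 5.79%. The peak numbers behind these shares were 6, 8 and 7 against 6, 6 and 6 in alpha and 9, 10 and 10 against 9, 10 and 9 in beta, beside totals of 65865, 77194 and 64511 peaks with DMSO and 79807, 84510 and 70121 with APH. With the cluster bounds moved out by 1 kb, which keeps peaks at the first start, the numbers in alpha were 6, 9 and 7 against 6, 7 and 7 and the shares overlapped (exact permutation test, p = 0.2). Gamma held 5, 6 and 7 peaks with DMSO and 6, 7 and 6 with APH, and its shares overlapped (exact permutation test, p = 0.8). With its bounds moved out by 1 kb, which adds the peak at PCDHGA1, it held 6, 7 and 8 against 7, 8 and 7. Its shares overlapped there too (exact permutation test, p = 0.8), and its relative value differed by 0.06 (exact permutation test, p = 0.7). With peaks at or above the pooled median the gamma share was lower in all 3 APH samples, a difference of -0.00312% (exact permutation test, p = 0.1).

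**Figure D4:**
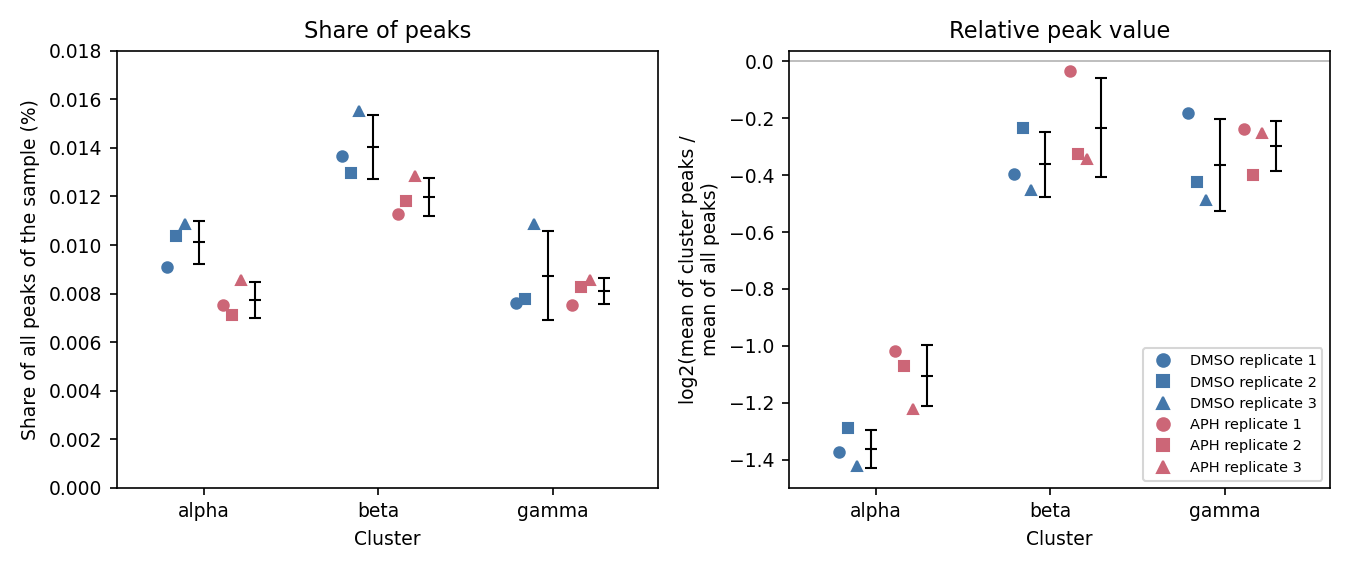
Percent of a sample's peaks (left, axis from 0) and log2 ratio of the mean value of a cluster's peaks to the mean of all peaks (right) for the alpha, beta and gamma clusters; marks are samples and bars are mean ± SD (n = 3). Alpha peaks lie at -1.02 or below on the right in all 6 samples, under those of beta and gamma, and the APH marks of alpha lie above its DMSO marks.

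The genes whose products act on clustered protocadherin promoters had a promoter peak themselves. The list holds the insulator protein CTCF, the cohesin subunits RAD21, SMC1A, SMC3, STAG1 and STAG2, the cohesin loader NIPBL and its release factor WAPL, the chromosome protein SMCHD1, the DNA methyltransferases DNMT3A and DNMT3B and the histone methyltransferase SETDB1. A promoter peak was found in all 6 samples for 12 of 12, against 10811 of the 19626 protein-coding genes of known strand. The mean log2 value was lower in APH for 12 of 12, against 10043 of all 10811 promoters, with a median log2 change of -0.29 against -0.27. The APH samples lay below all DMSO samples for 5 of the 12, against 42.2% of all promoters, and 0 passed the limma threshold, against 2.41%. CTCF had a log2 change of -0.17 ± 0.13 (SE, limma adjusted p = 0.307) and RAD21 one of -0.38 ± 0.13 (SE, limma adjusted p = 0.067).

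Markers were checked by a promoter peak in all 6 samples, which shows an accessible promoter and not expression. Such a peak was found for 2 of 6 epithelial genes (EPCAM and KRT8), 2 of 5 intestinal (CDX2 and LGR5), 1 of 4 mesenchymal (ZEB1), 3 of 6 neuronal (SNAP25, MAP2 and TUBB3) and 0 of 3 leukocyte genes. Over the 19626 protein-coding genes of known strand, 10811 had one. Of the other markers, KRT18, an epithelial keratin, had a promoter peak in 5 samples, and the rest of the 5 lists had none in any sample, among them the epithelial CDH1, the intestinal CDX1 and the mesenchymal VIM.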

How the data were processed

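The data are ATAC-seq peak lists of 6 RKO samples, 3 per treatment, grouped by the treatment named in the labels. The authors aligned reads with BWA 0.7.12, removed duplicates and blacklisted peaks, kept uniquely mapped pairs, extended alignments to 200 bp, counted them in 32-nt bins and called peaks per sample with MACS2 2.1.0, per the study's methods and the submitters' processing notes, which name hg38. No shift to the transposase cutting site is named. The deposited value is the signal (mean coverage per bin) of a peak. Value times number of bins was whole, within 0.0006 per bin, in 99.995% to 100% of peaks, so values were not multiplied by a scale factor. Alignments reduced to an equal number before counting would also give whole values, which was not tested, and depth is unknown. Region starts may be off by 1 base.

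Gene names and starts came from RefSeq (GRCh38.p14). Strand came from the RefSeq promoter table, or for 3814 genes (6 members) from GENCODE by symbol. Peaks overlapping by 1 bp were merged, and values are means weighted by length. Single values per sample were compared by two-sided exact permutation tests, in which 3 against 3 cannot give a p below 0.1. Regions and promoters present in all samples were fitted genome-wide with limma 3.58.1 (R 4.3.3, trend, log2 of value + 1, Benjamini-Hochberg, 0.05). On simulated data with 50 features per change, log2 changes of 0.5 and 1 were recovered in 4% and 44% of regions. For promoters these shares were 46% and 86%, so changes of the size seen in the locus can be missed. Given in full are the 3 members with the highest mean promoter value per cluster, C-type genes, any member past the threshold, the 3 strongest shared regions and that of smallest p per cluster; PCDHB10, PCDHB11, PCDHGA1, PCDHGB2, the partly detected members and the regions outside the clusters were named after their values were seen. Members, lists of regulators and markers, and motifs were chosen with earlier results of these data known. Alternatives covered peak thresholds, peak number, flanks, bounds, pseudocounts, scaling, a replicate block, low values, promoter size, overlap and each replicate left out. The labels give no batch. Python 3.11.15 with numpy 2.4.6, pandas 2.3.3 and matplotlib 3.10.9 was used.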

Additional observations from a re-analysis of the deposited data

How the results depend on the processing

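Depth is unknown, so any difference in depth left between the samples at counting passes into every value. Of the 153 alternatives tried for comparisons between groups, 18 turned the direction, 4 raised a count of calls from 0 and 2 gave a difference of 0. Of the 155 tried for single promoters and regions, 8 turned the direction and 6 newly passed the threshold. The exact tests cannot pass a threshold of 0.05 at all, so their calls could not change.

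The difference in locus peaks (0.333) was -1.33 with peaks at or above the pooled median and -1 with equal peak numbers, and ran from -1.17 to 1.83 when 1 replicate was left out. The gamma share (-0.000619%) was 0.000437% without DMSO replicate 3 and ran from -0.00119% to that value over the replicates left out. The relative value of locus peaks (0.0689) was -0.0269 with the median over peaks, -0.0111 with equal peak numbers, -0.0240 over shared regions and -0.138 as deposited. With peaks at or above the pooled median, the relative value of alpha, 0.257 and separated as reported, was -0.123, beta minus alpha 0.126, gamma minus alpha 0.413 and gamma minus beta 0.286. Gamma was -0.105 with the median over peaks. Over shared regions beta was -0.0139 and gamma minus beta 0.0674. Over all peaks gamma minus beta (-0.0600) ran from -0.154 to 0.0497 when 1 replicate was left out.

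With the replicate number as a block, 3 regions of the locus passed the threshold in place of 0 (PCDHGA10, TAF7 and the region at 255 kb) and 2 member promoters in place of 0 (PCDHGA10 at limma adjusted p = 0.00677 and PCDHB13 at 0.0261), while 6604 of 50150 regions and 5754 of 10811 promoters passed genome-wide. Deviations of samples with the same number from their group means correlated at -0.00665, 0.478 and 0.515. Deviations from a mean of 3 sum to 0, so these values are not independent and cannot settle whether the numbers pair the samples. The cause of the added calls was not tested. A promoter of 2 kb gave 1 call of 13 members (PCDHGA10), against 6.65% of all promoters, and leaving out 1 replicate gave 0 to 1, the 1 being PCDHGA10 without APH replicate 3, against 19.1% of all promoters. The filter on low promoter values left 0 members to test. Genome-wide promoter calls ran from 0 to 5754 over the settings.

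Among single promoters, leaving out 1 replicate gave -0.0875 to 0.138 for PCDHA8 and -0.0110 to 0.151 for PCDHB2, which both changed sign. It gave 0.0242 (without DMSO replicate 3) to 0.490 (without DMSO replicate 2) for PCDHA13, -0.348 (without APH replicate 1) to -0.0276 (without APH replicate 3) for PCDHB8, 0.148 (without DMSO replicate 3) to 0.406 (without DMSO replicate 2) for PCDHGC5 and -0.474 (without APH replicate 1) to -0.222 (without APH replicate 3) for PCDHB13. With median centring PCDHB8 was 0.0830 and PCDHGB1 0.0125, and PCDHB8 was 0.0799 with quantile normalization.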
